A study of Mus musculus with 12 samples.

Results

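The livers compared came from male C57BL/6J mice, an inbred strain, that were fed either a normal diet (ND) or a high-fat diet without any supplement (control) for 26 weeks from 5 weeks of age. Each group held 3 mice, and both were part of a series of 12 mice whose other groups received the high-fat diet with 1% HYA, a hydroxy fatty acid made from linoleic acid by gut bacteria, or 1% linoleic acid (LA). The labels name no altered allele and no agent other than the diet for the ND and control mice, and the comparison asks how prolonged high-fat feeding alters the liver transcriptome. Expression was measured by RNA sequencing of whole liver and is given as FPKM, the number of fragments per gene adjusted for gene length and for a scaling total of each library. The table listed 54532 genes, of which 11083 averaged 1 FPKM or more across the 12 mice and were tested and the remaining 43449 were not. The gene just inside this limit was *Poc5*, with a mean of 1.0001 FPKM, and the gene just outside it was *Cenpl*, with a mean of 0.99967 FPKM. The mice are of 1 sex and 1 strain, and the time of day at which livers were collected is not given in the sources used here. Whole liver mixes hepatocytes with stellate cells, macrophages, endothelium and bile duct cells, and fewer cells of a type and less RNA per cell cannot be told apart in such samples.

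The liver stores surplus fatty acids as triglyceride in lipid droplets when their supply exceeds oxidation and export, and a long high-fat diet is a standard way to provoke this state in mice. Hepatocytes also make most plasma proteins, clear nitrogen through the urea cycle, convert cholesterol to bile acids, and metabolise steroids and foreign compounds with cytochrome P450 enzymes. Many of those genes differ between male and female mice, because pulses of growth hormone in males act through the transcription factor STAT5b. In a fatty liver, resident Kupffer cells can be joined by macrophages that take up lipid, and stellate cells can lay down collagen.

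Between 17169064 and 20669092 fragments fell on genes in each of the 6 livers. The ND mice had 19281 to 19493 and the control mice 20083 to 20372 genes with at least 1 fragment, so the groups did not overlap in this measure. A count of 3 fragments, for a gene 2 kb long, equals 0.0698 to 0.0944 FPKM, a floor that covers counting error only. Hepatocyte genes were high in all 6 libraries, with *Alb* (albumin) at 30140, 29040 and 28480 FPKM in ND mice and 19070, 21530 and 20900 FPKM in control mice, and the 10 skeletal muscle markers summed to 0.526 to 1.10 FPKM. Of the 14 pancreatic acinar markers only *Cela1* passed the limit of 1 FPKM. Control mouse 3 stood apart from the other 2 control mice in genes of the circadian clock, as described at the end, and the counts of changed genes and of list members were also computed without it.

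Genes were tested with limma on log2(FPKM + 1), and a difference is written as a log2 fold change of control over ND with its standard error (SE). A gene is said to have risen or fallen when its Benjamini-Hochberg adjusted p was below 0.05, and to have passed both thresholds when its log2 fold change was also above 1 or below -1. Of the 11083 genes, 249 (2.25%) passed both thresholds as higher and 181 (1.63%) as lower in control mice. By adjusted p alone 1795 genes (16.2%) rose and 2115 genes (19.1%) fell, and these shares are the background for every list below. All lists were drawn up with earlier results of these data known, so their counts are descriptions. The ranges of the 3 ND and 3 control mice did not overlap for 45.6% of all tested genes, for all 249 of the higher genes and for 179 of the 181 lower genes. Over all tested genes the log2 fold change had a median of -0.04. Leaving out control mouse 3 gave 256 higher and 201 lower genes. The balance of directions depended on the scaling: 57.9% of the genes past both thresholds were higher, against 80.6% after rescaling to TPM, in which every column has the same total, where 573 were higher and 138 lower and the median of all genes was 0.17. By adjusted p alone the higher share was 45.9% in FPKM and 83.8% in TPM. Of the 279 genes that the rule for named genes selects, 51 overlap another gene, and their fragments cannot be told apart from those of an antisense partner.

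The 249 higher genes had a median of 2.46 FPKM in ND mice and 9.94 FPKM in control mice, and the 181 lower genes medians of 31.2 and 10.5 FPKM. The sets thus differed in level in the ND mice and hardly in the control mice, and choosing genes by direction itself favours such a difference. The median ND level of all tested genes was 5.31 FPKM. The limit of 1 FPKM was set on the mean of 12 mice, 9 of them on the high-fat diet, so a gene near 0 in ND mice could enter only if it was high in those groups. Counts and medians of lists with such genes are tilted upward and are given as descriptions. The lower genes made up 10.96%, 12.2% and 12.6% of the summed FPKM of the ND mice and 3.18%, 4.48% and 4.03% of that of the control mice. The higher genes rose from 0.713%, 0.746% and 0.694% to 4.12%, 3.47% and 3.79%. Since these genes were chosen for their difference, the shares describe how much of the transcriptome was involved and were not tested. Protein-coding genes accounted for 220 of the higher and 141 of the lower genes. A log2 fold change above 2 was reached by 47 genes and one below -2 by 44, and 7 genes exceeded 4 whereas 9 lay below -4.

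**Figure D1:**
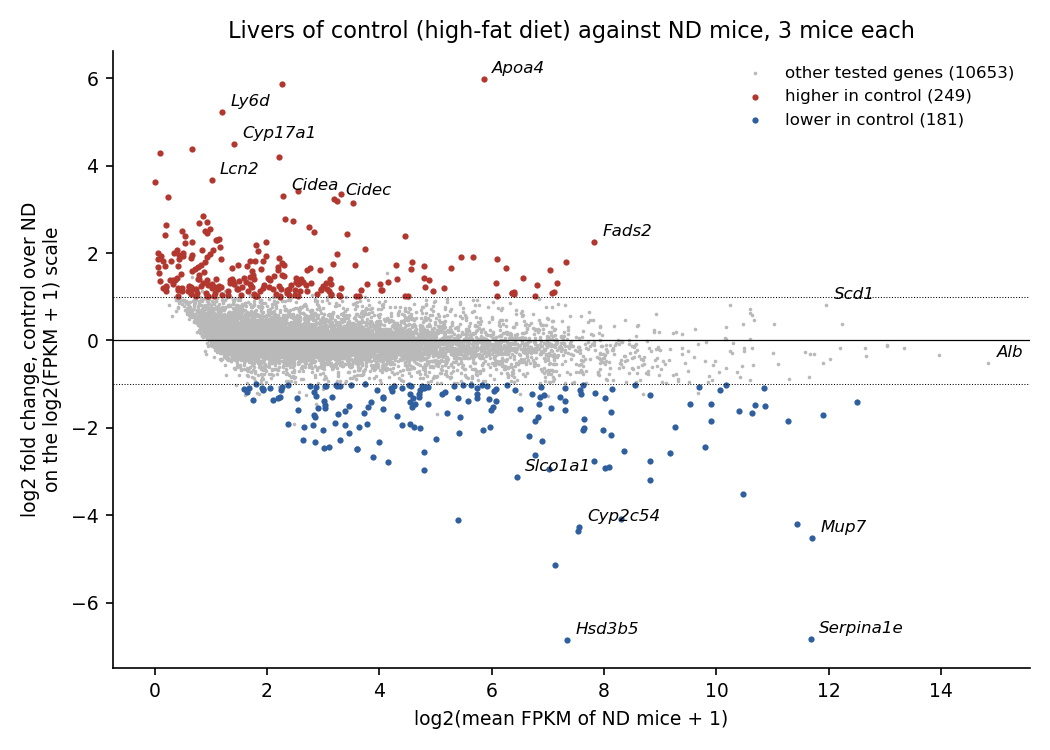
Log2 fold change of control over ND mice against the mean level in ND mice, log2(FPKM + 1), for the 11083 tested genes; red and blue points are the 249 higher and 181 lower genes past both thresholds and dotted lines mark log2 fold changes of 1 and -1. Higher genes lie mostly at low ND levels (median 2.46 FPKM) and lower genes extend to the most abundant transcripts (median 31.2 FPKM).

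Genes for storing fat rose together. Of 19 tested members of a list of lipid droplet proteins and lipases, 11 rose and the remaining 8 did not pass the test, with a median log2 fold change of 0.59. *Plin2*, the main droplet coat protein of hepatocytes, was at 132, 154 and 142 FPKM in ND mice and 372, 343 and 354 FPKM in control mice. The control values were all above the ND values and close to each other (log2 fold change 1.32 ± 0.06 SE, adjusted p = 2.61e-07). *Cidec* and *Cidea* encode proteins that fuse small droplets into larger ones and are abundant in adipocytes. *Cidec* was at 8.16, 10.6 and 6.89 FPKM in ND mice and 104, 81.8 and 71.9 FPKM in control mice (log2 fold change 3.19 ± 0.17 SE, adjusted p = 6.32e-07). *Cidea* was at 3.96, 3.08 and 4.54 FPKM in ND mice and 55.3, 32.5 and 56.1 FPKM in control mice (log2 fold change 3.30 ± 0.26 SE, adjusted p = 9.05e-06), and neither gene overlapped between the groups. *Pnpla3*, a droplet-bound lipase and acyltransferase, went from 0.331 to 1.22 FPKM in ND mice to 7.98 to 11.7 FPKM in control mice, without overlap (log2 fold change 2.68 ± 0.24 SE, adjusted p = 1.91e-05). *Hilpda*, an inhibitor of triglyceride lipase, and *Plin4* also rose, with log2 fold changes of 1.57 and 1.27. Adipocytes carry droplet genes too. Of the 12 listed adipocyte markers 6 were tested, of which 2 rose (*Cidea* and *Fabp4*) and 1 fell (*Cfd*, complement factor D), with a median of 0.42, and 4 rose without control mouse 3. The 12 markers summed to 43.6 to 44.5 FPKM in ND mice and 84.3 to 114 FPKM in control mice. The defining markers *Lep* and *Plin1* were listed at 0 in all 6 mice, and *Adipoq* was at 0 in the 3 control mice and at 0.0412 to 0.182 FPKM in the ND mice. In HYA-treated and LA-treated mice, which shared these controls, *Cidec* had means of 59.4 and 74.99 FPKM, respectively.

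Uptake and esterification of fatty acids showed the same direction, with 15 of 27 tested members higher, 4 lower and a median of 0.42. *Cd36*, a fatty acid transporter of the cell surface, was at 29.4, 27.2 and 23.5 FPKM in ND mice and 90.5, 83.3 and 91.1 FPKM in control mice. Its control values were about the same in the 3 mice and far from the ND range (log2 fold change 1.69 ± 0.09 SE, adjusted p = 6.32e-07). *Mogat1* makes diacylglycerol from monoacylglycerol, a route that is minor in normal liver. It was at 1.13, 1.25 and 1.07 FPKM in ND mice and 10.2, 9.46 and 9.23 FPKM in control mice (log2 fold change 2.31 ± 0.09 SE, adjusted p = 9.37e-08). *Fabp2*, the intestinal fatty acid binding protein, rose with a log2 fold change of 1.32, *Fabp4*, the adipocyte form, with 1.36, and *Lpin1*, a phosphatidate phosphatase, with 1.31. The call of *Lpin1* was lost when control mouse 2, ND mouse 1 or ND mouse 2 was left out, with log2 fold changes of 1.05 to 1.18. *Pparg*, the nuclear receptor that drives adipocyte genes, was at 9.31, 8.25 and 5.37 FPKM in ND mice and 13.4, 9.70 and 8.63 FPKM in control mice, and its groups overlapped (log2 fold change 0.43 ± 0.18 SE, adjusted p = 0.0927). Without ND mouse 1 *Pparg* passed the test with a log2 fold change of 0.57. *Fabp1*, the abundant liver form, gained 1434 FPKM on average from a mean of 4804 FPKM, a log2 fold change of 0.37.

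Genes of fatty acid synthesis rose. Of 17 tested members of the de novo lipogenesis list 11 rose and 2 fell, with a median of 0.84. *Scd1*, the desaturase that makes oleic acid, was at 3899, 4549 and 3421 FPKM in ND mice and 7536, 6521 and 6613 FPKM in control mice. The mean gain of 2934 FPKM was, among genes that rose, exceeded by that of *Apoa4* alone, at 3630 FPKM. *Fasn*, fatty acid synthase, was at 121, 182 and 101 FPKM in ND mice and 280.2, 297 and 262 FPKM in control mice (log2 fold change 1.10 ± 0.19 SE, adjusted p = 0.0013). *Acacb*, which makes the malonyl-CoA that restrains fatty acid oxidation, and *Elovl6*, which lengthens palmitate, had log2 fold changes of 1.30 and 1.22. *Pnpla5* lies next to *Pnpla3* on chromosome 15 and was at or near 0 in ND mice, with 0 to 0.145 FPKM, against 1.47 to 2.27 FPKM in control mice.

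Desaturation and elongation of polyunsaturated fatty acids gave a higher median, 1.05, with 7 of 10 tested members up and 1 down. *Fads2*, the delta-6 desaturase, was at 215, 235 and 223 FPKM in ND mice and 1118, 1284 and 839 FPKM in control mice. All control mice lay at more than 3 times the highest ND value (log2 fold change 2.24 ± 0.17 SE, adjusted p = 6.57e-06). *Fads1*, the delta-5 desaturase beside it on chromosome 19, was at 127, 134 and 131 FPKM in ND mice and 396, 447 and 356 FPKM in control mice (log2 fold change 1.60 ± 0.09 SE, adjusted p = 8.01e-07). The elongases that act on their products rose as well, *Elovl5* with a log2 fold change of 1.79 and *Elovl2* with 1.10. *Elovl3*, an elongase of saturated and monounsaturated chains, was the member that fell, from 257, 310.0 and 243 FPKM in ND mice to 14.6, 28.04 and 105 FPKM in control mice. Control mouse 3 was the highest control mouse, and the log2 fold change of -2.89 became -3.66 without it and -2.28 without control mouse 1.

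Enzymes of fatty acid oxidation and ketogenesis rose by smaller amounts. Of 31 tested members 19 rose and 1 fell, with a median of 0.24. *Cpt1a*, which admits long-chain fatty acids to mitochondria, was at 85.03, 75.9 and 89.8 FPKM in ND mice and 184, 215 and 138 FPKM in control mice (log2 fold change 1.07 ± 0.16 SE, adjusted p = 0.000596). *Acot2*, a mitochondrial thioesterase, had a log2 fold change of 1.82 and *Crat*, which buffers acetyl-CoA as acetylcarnitine, one of 1.16. *Vnn1*, a pantetheinase that is a classic target of the receptor PPARα, was at 21.9, 24.2 and 22.3 FPKM in ND mice and 70.5, 71.1 and 75.7 FPKM in control mice (log2 fold change 1.63 ± 0.06 SE, adjusted p = 3.63e-08). *Ppara* itself was at 33.9, 38.5 and 42.3 FPKM in ND mice and 54.8, 64.3 and 37.96 FPKM in control mice and did not pass the test (log2 fold change 0.42 ± 0.19 SE, adjusted p = 0.112), but did without control mouse 3, with 0.63. *Pdk4*, the kinase that switches off pyruvate dehydrogenase, had a log2 fold change of 1.19, a call that was lost without ND mouse 1, where it was 1.01.

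The fatty acid omega hydroxylases of the Cyp4 family split by member. Of 12 tested, 2 rose, 6 fell and 4 did not pass, with a median of -0.51, and 4 rose without ND mouse 3. *Cyp4a14* rose, from 144, 71.2 and 63.3 FPKM in ND mice to 183, 257 and 281 FPKM in control mice, and *Cyp4a31* rose with a log2 fold change of 1.39. *Cyp4a10*, another PPARα target, overlapped between the groups at 121, 99.7 and 74.7 FPKM in ND mice and 95.8, 126 and 129.8 FPKM in control mice (log2 fold change 0.26 ± 0.18 SE, adjusted p = 0.275). *Cyp4a12a* and *Cyp4a12b*, the forms found mainly in males, fell. *Cyp4a12a* was at 103, 137 and 116 FPKM in ND mice and 17.6, 25.9 and 27.5 FPKM in control mice (log2 fold change -2.29 ± 0.21 SE, adjusted p = 2.22e-05), and *Cyp4a12b* had a log2 fold change of -2.98. *Cyp4f14*, which degrades leukotrienes and vitamin K, fell with -1.54. These paralogs share sequence, so the split of fragments among the Cyp4a members is uncertain.

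**Figure D2:**
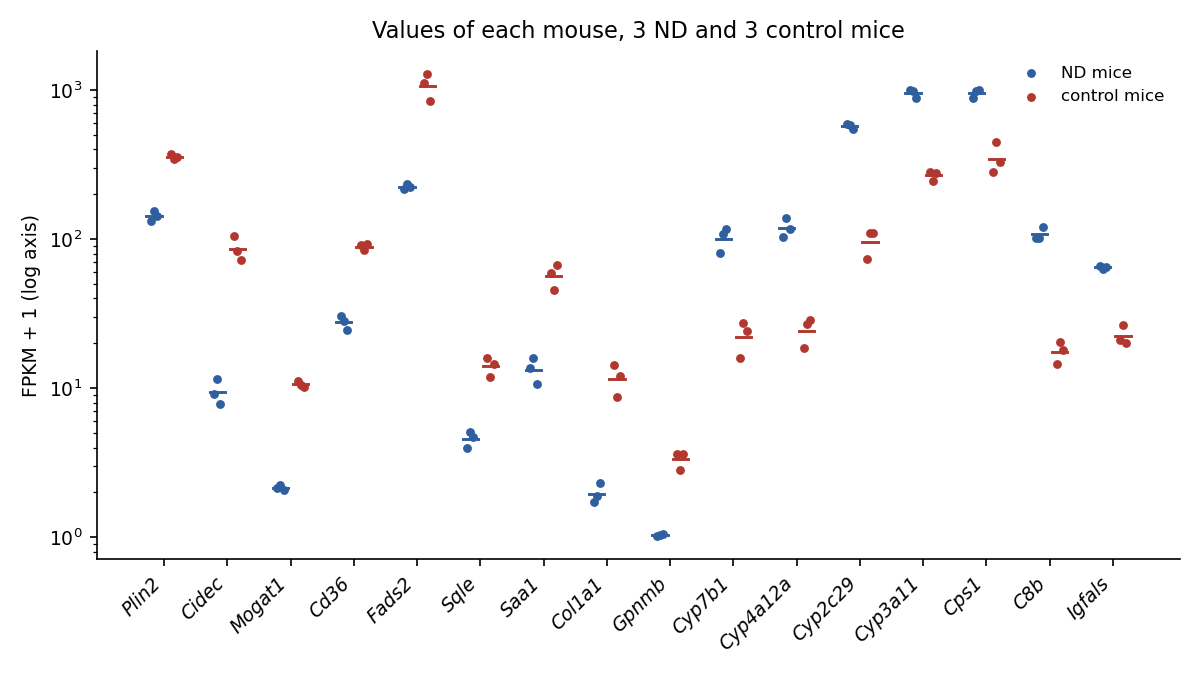
FPKM + 1 on a log axis for 16 named genes in each of the 3 ND (blue) and 3 control (red) mice; bars are means of the log values. In all 16 genes the groups are apart, 9 with higher values and 7 with lower values in control mice.

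Cholesterol synthesis also rose. Of 29 tested members of the pathway list 14 rose and 3 fell, with a median of 0.38, and 5 fell without control mouse 2. *Sqle*, squalene epoxidase, was at 2.99, 4.12 and 3.70 FPKM in ND mice and 14.8, 10.9 and 13.5 FPKM in control mice (log2 fold change 1.61 ± 0.18 SE, adjusted p = 0.000101). *Mvd* and *Dhcr7*, which act in the middle and at the end of the pathway, had log2 fold changes of 1.29 and 1.03. *Fdps*, farnesyl diphosphate synthase, rose with 0.99 from a level near 1 FPKM. The promoter of *Mvd* is shown because promoters of this list often held the box CCAAT, which binds the factor NF-Y. Of the 21 members with a promoter in the reference 19 (90.5%) held it, against 42.8% of the 8194 tested genes with a promoter. It was 1 of 23 short motifs counted on both strands of 250 bases before to 50 bases after each start, and the 3 named in the text were picked after the counts were seen. A match is a description and not a binding site. In the promoter of *Mvd*, at chr8:122443373-122443672 on the minus strand of GRCm38.p6 (RefSeq), the 2 boxes are in capitals.
Mvd: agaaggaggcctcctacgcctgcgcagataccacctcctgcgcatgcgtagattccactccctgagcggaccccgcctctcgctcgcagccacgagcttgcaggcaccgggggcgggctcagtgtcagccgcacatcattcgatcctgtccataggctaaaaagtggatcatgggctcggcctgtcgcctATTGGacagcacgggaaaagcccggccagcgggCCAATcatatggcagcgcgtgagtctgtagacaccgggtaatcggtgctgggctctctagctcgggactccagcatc

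Bile acid synthesis and transport moved the other way. Of 24 tested members 15 fell and 3 rose, with a median of -0.63. *Cyp7a1*, the rate-limiting enzyme of the classic pathway, did not pass the test, at 24.1, 25.4 and 14.6 FPKM in ND mice and 18.5, 17.8 and 6.82 FPKM in control mice (log2 fold change -0.62 ± 0.40 SE, adjusted p = 0.253). *Cyp7b1*, of the alternative pathway, was at 80.1, 107 and 116 FPKM in ND mice and 14.9, 26.3 and 23.3 FPKM in control mice, with no overlap between groups (log2 fold change -2.20 ± 0.20 SE, adjusted p = 2.7e-05). *Cyp2c70*, which makes the muricholic acids that distinguish mouse from human bile, was at 238, 273 and 318 FPKM in ND mice and 48.1, 65.1 and 71.1 FPKM in control mice (log2 fold change -2.16 ± 0.14 SE, adjusted p = 3.16e-06). *Cyp8b1*, which makes cholic acid, was one of the 3 members that rose, from 120.3, 125 and 129 FPKM in ND mice to 186, 203 and 251 FPKM in control mice (log2 fold change 0.76 ± 0.19 SE, adjusted p = 0.0102). The canalicular export pump *Abcb11* fell with a log2 fold change of -1.02. The uptake transporter *Slco1a1* fell from 67.6, 86.9 and 104 FPKM in ND mice to 3.36, 17.5 and 10.5 FPKM in control mice, and its log2 fold change of -3.14 became -2.55 without control mouse 1.

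Genes of lipoprotein assembly held the largest increase of the whole comparison. *Apoa4*, an apolipoprotein of triglyceride-rich particles, was at 55.3, 53.1 and 62.1 FPKM in ND mice and 3946, 3121 and 3996 FPKM in control mice (log2 fold change 5.99 ± 0.14 SE, adjusted p = 1.89e-09). *Apoa4* overlaps *Gm10680* and *Gm47528* on the opposite strand, which also passed both thresholds, and strand-specific counting is not given in the sources used here. *Apob* and *Mttp*, which are needed for every particle the liver secretes, differed little in level. *Apob* was at 667, 664 and 667 FPKM in ND mice and 569, 583 and 615 FPKM in control mice and *Mttp* at 61.9, 68.5 and 61.9 FPKM in ND mice and 62.05, 68.4 and 66.4 FPKM in control mice, with log2 fold changes of -0.18 and 0.03, and the fall of *Apob* turned into 0.06 when the columns were rescaled to TPM. The call of *Apob* held in 1 of the 6 fits that left out a mouse, the one without control mouse 3. Over the 23 tested members 3 rose and 9 fell, with a median of -0.17 that became 0.07 in TPM. *Pltp*, which transfers phospholipid, rose with 1.43, and *Sort1*, a sorting receptor for apolipoprotein B, fell with -1.27.

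Genes that differ between the sexes shifted towards lower male-biased and higher female-biased expression. Of 25 tested genes listed as male-biased 24 fell, and the other, *Mup20*, did not pass the test. The median log2 fold change was -1.98, and it was also -1.98 over the 19 members that are not major urinary proteins, all of which fell. Without any 1 mouse 22 or 23 of the 25 fell. Of 13 tested female-biased genes 11 rose and 1, *Cyp2b10*, fell, with a median of 1.44. Of the 13, 4 had an ND mean below 1 FPKM and all 4 were among those that rose, so that the level limit tilts this count. A further 14 of the 27 listed female-biased genes were below the limit of 1 FPKM, several of them at or near 0 in all 6 mice, among them *Cyp3a41a* and *Sult2a1*. The male-biased list, like the others, was assembled with earlier results of these samples known. List counts thus describe these livers and are not independent evidence.

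Among the male-biased genes, *Hsd3b5*, a steroid reductase of male liver, was at 139, 162 and 182 FPKM in ND mice and 0.0901, 1.27 and 0.0935 FPKM in control mice. Control mice 1 and 3 were near the floor of 3 fragments, and the 3 control livers together gave 48 fragments against 12842 in the 3 ND livers. *Cyp2d9*, a testosterone hydroxylase, was at 557, 649.5 and 632 FPKM in ND mice and 152, 144 and 167 FPKM in control mice (log2 fold change -1.98 ± 0.10 SE, adjusted p = 6.32e-07). *C8b*, a chain of the complement attack complex, was at 102, 102 and 119.8 FPKM in ND mice and 13.5, 19.4 and 17.01 FPKM in control mice (log2 fold change -2.63 ± 0.11 SE, adjusted p = 1.32e-07). *Gstp1*, a glutathione transferase, fell from 1406, 1354 and 1319 FPKM in ND mice to 436, 405 and 493 FPKM in control mice (log2 fold change -1.61 ± 0.14 SE, adjusted p = 1.82e-05). *Ugt2b1* fell with a log2 fold change of -1.33. *Ugt2b38* fell with -1.16, a call that did not hold when any 1 of the 6 mice was left out.

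The female-biased genes that rose included steroid and xenobiotic P450 enzymes that were at low levels in the ND mice. *Cyp17a1*, a steroid hydroxylase and lyase, was at 1.76, 1.63 and 1.62 FPKM in ND mice and 52.4, 70.5 and 55.8 FPKM in control mice (log2 fold change 4.49 ± 0.13 SE, adjusted p = 7.78e-09). *Cyp2b9* was at 6.10, 10.1 and 8.19 FPKM in ND mice and 96.7, 86.2 and 69.7 FPKM in control mice (log2 fold change 3.23 ± 0.19 SE, adjusted p = 1.33e-06), and its neighbour in sequence *Cyp2b13* at 0.334, 0.403 and 0.297 FPKM in ND mice and 5.11, 4.42 and 3.32 FPKM in control mice (log2 fold change 1.96 ± 0.20 SE, adjusted p = 5.19e-05). *Cyp2a4*, a testosterone hydroxylase that is nearly identical to *Cyp2a5*, was at 1.08, 0.29 and 0.416 FPKM in ND mice and 36.95, 50.1 and 16.4 FPKM in control mice. *Abcd2*, a peroxisomal transporter of fatty acids, was at 2.81, 2.64 and 2.72 FPKM in ND mice and 10.7, 10.6 and 10.6 FPKM in control mice, with hardly any spread within a group (log2 fold change 1.64 ± 0.06 SE, adjusted p = 5.59e-08). *Acot3* rose with 1.72, but this call was lost without control mouse 1, control mouse 2, ND mouse 2 or ND mouse 3.

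**Figure D3:**
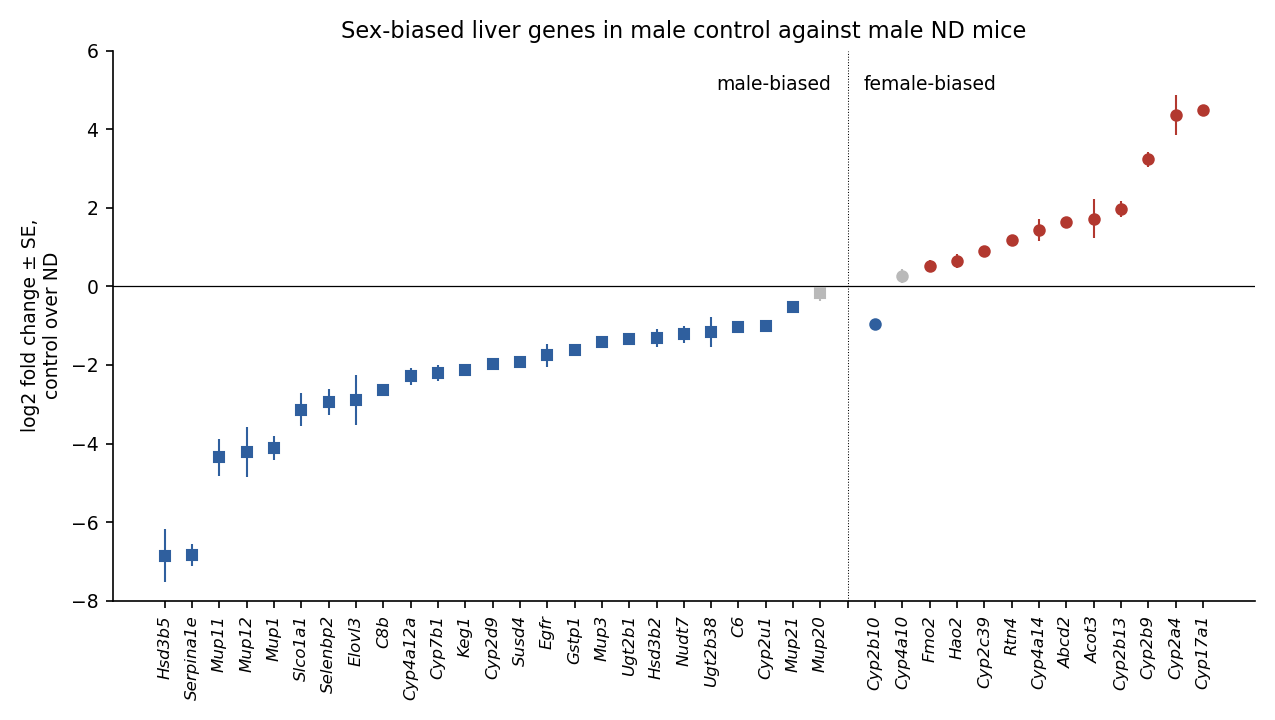
Log2 fold change of control over ND mice with its SE for the 25 tested male-biased (squares) and 13 tested female-biased (circles) genes; red and blue mark genes that rose or fell at an adjusted p below 0.05 and grey the others. All but *Mup20* of the male-biased genes fell and 11 of 13 female-biased genes rose.

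In the growth hormone axis, of 15 tested members 5 fell and 1 rose, with a median of -0.39. *Ghr*, the receptor, was at 77.6, 84.4 and 81.2 FPKM in ND mice and 46.01, 54.9 and 44.9 FPKM in control mice (log2 fold change -0.73 ± 0.09 SE, adjusted p = 0.000159), and *Igf1*, the hormone the liver releases in response, at 52.1, 59.5 and 51.2 FPKM in ND mice and 35.6, 35.9 and 28.3 FPKM in control mice (log2 fold change -0.70 ± 0.10 SE, adjusted p = 0.000345). *Igfals*, the partner that stabilises IGF1 in plasma, was at 65.5, 62.1 and 64.1 FPKM in ND mice and 20.1, 25.7 and 19.2 FPKM in control mice (log2 fold change -1.53 ± 0.10 SE, adjusted p = 2.23e-06). *Igfbp2* and the prolactin receptor *Prlr* fell with log2 fold changes of -1.13 and -0.68, and *Igfbp3* rose with 0.87.

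Major urinary proteins, pheromone carriers secreted in bulk by male liver, lost most of their transcript. Summed over 21 genes they took 3.30%, 4.38% and 4.72% of all FPKM in ND mice and 1.05%, 1.61% and 1.28% in control mice (exact permutation test, two-sided, p = 0.1, the smallest that 3 against 3 mice allow). Of 18 tested members 15 fell, with a median of -2.58. *Mup7* was at 2100, 3804 and 4097 FPKM in ND mice and 23.1, 459 and 242 FPKM in control mice (log2 fold change -4.52 ± 0.84 SE, adjusted p = 0.00205). Control mouse 1 was the lowest and control mouse 2 the highest, and the log2 fold change ranged from -5.39 without mouse 2 to -3.26 without mouse 1. *Mup3*, the most abundant member, fell less, from 5106, 6039 and 6157 FPKM in ND mice to 1743, 2687 and 2169 FPKM in control mice (log2 fold change -1.41 ± 0.15 SE, adjusted p = 7.57e-05). *Mup20*, known as darcin, was at 1384, 1546 and 1842 FPKM in ND mice and 1426, 1278 and 1493 FPKM in control mice and overlapped between groups (log2 fold change -0.18 ± 0.19 SE, adjusted p = 0.508). *Mup7*, *Mup14*, *Mup17* and *Mup18* were 4 of the 5 changed genes with the largest spread among the control mice, the other being *Cyp26a1*. Leaving out control mouse 1 moved *Mup14* from -4.08 to -3.25 and *Mup17* from -2.44 to -1.45, while leaving out control mouse 2 moved them to -4.81 and -3.38. *Mup18* went from -3.20 to -4.09 when control mouse 2 was left out, or to -2.15 when it was control mouse 3. The call of *Mup17* was lost without ND mouse 2.

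The Mup genes lie in a cluster on chromosome 4 and are so alike that fragments can be credited to the wrong copy, so values of single members are uncertain. Their promoters are shown because they carry this likeness. Among the 12 members with a promoter in the RefSeq reference (GRCm38.p6), 9 matched that of *Mup7* at 95.2% to 98.5% of the aligned positions, with overlaps of 163 to 218 bases since the annotated starts differ, and *Mup3* and *Mup21* matched at 84.1% and 81.9%. *Mup3* had a log2 fold change of -1.41 and *Mup21* one of -0.53, against -4.52 to -1.06 for the other 10. The motif ATCAAT, a core that the factor HNF6 can bind, was in all 12 and in 5.09% of all tested promoters, and near-identical copies are not separate cases. It is in capitals in the promoters of *Mup7* (chr4:60070426-60070725), *Mup11* (chr4:60662346-60662645) and *Mup3* (chr4:62087268-62087567), all on the minus strand.
Mup7: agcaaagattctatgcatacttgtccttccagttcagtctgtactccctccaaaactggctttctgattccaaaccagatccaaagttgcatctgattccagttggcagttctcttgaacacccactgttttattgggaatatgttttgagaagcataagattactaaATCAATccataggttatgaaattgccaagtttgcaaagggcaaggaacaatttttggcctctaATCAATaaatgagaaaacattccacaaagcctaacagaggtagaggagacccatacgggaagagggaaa
Mup11: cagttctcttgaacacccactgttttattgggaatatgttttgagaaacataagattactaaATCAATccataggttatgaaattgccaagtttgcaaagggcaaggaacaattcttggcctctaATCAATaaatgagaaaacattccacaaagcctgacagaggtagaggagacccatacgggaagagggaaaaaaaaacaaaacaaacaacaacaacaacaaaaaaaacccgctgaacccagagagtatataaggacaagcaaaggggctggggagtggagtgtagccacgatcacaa
Mup3: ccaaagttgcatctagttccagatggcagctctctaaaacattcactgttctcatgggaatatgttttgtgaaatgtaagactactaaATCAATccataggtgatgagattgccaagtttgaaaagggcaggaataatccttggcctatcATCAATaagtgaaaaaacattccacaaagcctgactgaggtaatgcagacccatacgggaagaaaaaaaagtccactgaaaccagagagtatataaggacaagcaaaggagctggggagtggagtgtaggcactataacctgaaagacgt

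Several gene clusters held runs of neighbouring tested genes that were called in the same direction. The longest run was 6 neighbouring tested genes on chromosome 12 between 103763594 and 103958975, which held *Serpina1a*, *Serpina1c*, *Serpina1d* and *Serpina1e* and was lower throughout. A run of 5 lower Mup genes spanned positions 60066469 to 60501960 of chromosome 4. On chromosome 19 the 4 neighbours *Cyp2c37*, *Cyp2c54*, *Cyp2c50* and *Cyp2c70*, between 39992424 and 40187333, were all lower. Coordinates are those of the deposited table on GRCm38. Genes of such clusters share sequence and are not independent of each other.

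Cytochrome P450 genes of the Cyp2 and Cyp3 families mostly fell. Of 35 tested members 24 fell and 5 rose, with a median of -0.78. *Cyp2c29* was at 590.2, 582 and 549 FPKM in ND mice and 72.2, 108 and 108 FPKM in control mice (log2 fold change -2.59 ± 0.15 SE, adjusted p = 1.37e-06), and *Cyp3a11*, the main drug-metabolising form, at 1006, 980.1 and 887 FPKM in ND mice and 279, 246 and 277 FPKM in control mice (log2 fold change -1.84 ± 0.08 SE, adjusted p = 1.32e-07). *Cyp2c54* had the most negative log2 fold change of the 2 families, from 177, 182 and 203 FPKM in ND mice to 4.97, 11.03 and 11.9 FPKM in control mice (log2 fold change -4.27 ± 0.25 SE, adjusted p = 1.33e-06). *Cyp2e1*, which oxidises ethanol and paracetamol, fell from 3043, 3125 and 3417 FPKM in ND mice to 1520, 2203 and 1677 FPKM in control mice (log2 fold change -0.84 ± 0.18 SE, adjusted p = 0.00385). *Cyp1a2*, which oxidises caffeine, fell with a log2 fold change of -1.64. All 98 P450 genes together took 2.71%, 2.70% and 2.76% of the summed FPKM in ND mice and 1.57%, 1.88% and 1.64% in control mice (exact permutation test, two-sided, p = 0.1, the smallest possible).

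Conjugating enzymes fell alongside, with 15 of 21 tested UGT and SULT genes lower and 1 higher and a median of -0.45. *Sult2a8*, a bile acid sulfotransferase, was at 232, 252 and 272 FPKM in ND mice and 35.4, 102 and 58.04 FPKM in control mice (log2 fold change -2.06 ± 0.31 SE, adjusted p = 0.000534). *Ugt1a1*, which conjugates bilirubin, was at 124, 128 and 128 FPKM in ND mice and 69.99, 84.6 and 68.5 FPKM in control mice (log2 fold change -0.76 ± 0.10 SE, adjusted p = 0.000254). *Sult1a1*, a phenol sulfotransferase, overlapped between groups, with 121, 126 and 134 FPKM in ND mice and 114, 152 and 137 FPKM in control mice.

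Glutathione transferases and targets of the stress factor NRF2 went in both directions, 11 of 37 up and 10 down, with a median of -0.02, although 6 were down without control mouse 1 or ND mouse 2. *Gstm3* ranged from 47.3 to 51.4 FPKM in ND mice and from 159 to 218 FPKM in control mice, with no overlap (log2 fold change 1.90 ± 0.12 SE, adjusted p = 2.13e-06), whereas *Gsta2* was at 68.96, 64.1 and 51.2 FPKM in ND mice and 13.6, 15.99 and 14.4 FPKM in control mice (log2 fold change -1.99 ± 0.19 SE, adjusted p = 2.8e-05). *Nqo1*, a quinone reductase often read as an NRF2 target, rose from 4.98, 4.01 and 3.80 FPKM in ND mice to 10.4, 10.1 and 8.86 FPKM in control mice (log2 fold change 1.04 ± 0.11 SE, adjusted p = 5.23e-05). *Gclc*, which limits glutathione synthesis, was at 126, 116 and 113 FPKM in ND mice and 95.1, 82.01 and 161 FPKM in control mice, with control mouse 3 as the highest of the 6 mice. A loose pattern for the core of the antioxidant response element, which NRF2 binds, was in 11 of the 32 promoters of this list (34.4%). It was in 12.5% of all tested promoters. The pattern leaves the middle bases open, so a match need not be that element. A larger share of the female-biased promoters held it, and smaller shares of the male-biased, cholesterol and Mup promoters. It was also more frequent among the lower than among the higher genes past both thresholds. Matches to this pattern are in capitals for *Srxn1* and *Gstm3*. *Srxn1*, which restores oxidised peroxiredoxins, rose with a log2 fold change of 1.34 and was chosen after its values were seen. The promoter of *Srxn1* is at chr2:152105274-152105573 on the plus strand and that of *Gstm3* at chr3:107969125-107969424 on the minus strand (RefSeq, GRCm38.p6).
Srxn1: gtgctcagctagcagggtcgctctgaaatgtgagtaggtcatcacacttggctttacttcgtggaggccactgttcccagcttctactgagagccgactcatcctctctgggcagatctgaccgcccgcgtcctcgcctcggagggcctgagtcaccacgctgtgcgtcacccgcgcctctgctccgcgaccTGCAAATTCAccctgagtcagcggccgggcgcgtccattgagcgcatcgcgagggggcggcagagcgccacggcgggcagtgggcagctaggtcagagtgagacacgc
Gstm3: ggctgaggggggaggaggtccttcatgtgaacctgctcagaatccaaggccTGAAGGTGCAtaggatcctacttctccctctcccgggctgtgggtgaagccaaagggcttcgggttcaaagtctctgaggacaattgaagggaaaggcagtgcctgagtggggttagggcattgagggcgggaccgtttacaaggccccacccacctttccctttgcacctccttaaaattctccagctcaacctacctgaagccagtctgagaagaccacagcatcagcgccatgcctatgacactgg

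Disposal of nitrogen and amino acids fell as a group. Of 36 tested members 23 fell and 1 rose, with a median of -0.56. *Cps1*, the entry enzyme of the urea cycle, was at 889, 980.0 and 994 FPKM in ND mice and 283, 445 and 327 FPKM in control mice (log2 fold change -1.46 ± 0.17 SE, adjusted p = 0.000101). *Ass1*, which follows in the cycle, was at 1128, 1177 and 1152 FPKM in ND mice and 609.6, 938 and 726 FPKM in control mice (log2 fold change -0.63 ± 0.14 SE, adjusted p = 0.00675). *Gnmt*, which consumes surplus methyl groups, fell from 1544, 1780 and 1609 FPKM in ND mice to 458, 695 and 642 FPKM in control mice (log2 fold change -1.48 ± 0.14 SE, adjusted p = 3.5e-05), and *Hal*, of histidine breakdown, fell with a log2 fold change of -1.84. *Cth*, which makes cysteine, and *Hpd*, of tyrosine breakdown, had log2 fold changes of -1.38 and -0.95. *Sds*, serine dehydratase, overlapped between groups at 82.8, 93.6 and 87.9 FPKM in ND mice and 88.2, 144 and 60.7 FPKM in control mice.

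Carbohydrate metabolism changed in few members, 8 of 31 up and 2 down, with a median of 0.18. *Pck1* and *G6pc*, the defining enzymes of gluconeogenesis, did not pass the test. *Pck1* was at 256, 297 and 579 FPKM in ND mice and 299.8, 583 and 311 FPKM in control mice and *G6pc* at 113, 232 and 228 FPKM in ND mice and 107, 133 and 134 FPKM in control mice, with wide and overlapping ranges. *G6pc* had a log2 fold change of -0.54, and without ND mouse 1 it passed the test with -0.88. Over the 6 fits that left out a mouse, 5 to 10 members of the list rose and 1 to 4 fell, and the median was 0.09 without control mouse 2. *Pgd*, of the pentose phosphate pathway that supplies NADPH, rose with a log2 fold change of 1.04.

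The median of oxidative phosphorylation genes was close to that of all genes. Of 75 tested subunits 12 fell and 1 rose, a smaller share than the 19.1% and 16.2% of all genes, and the median was -0.08. The direction depended on the scaling, since 30 rose in TPM, with a median of 0.15. The number that fell ranged from 4 without ND mouse 3 or control mouse 1, and 6 without ND mouse 2, to 16 without control mouse 2. *Ndufs3*, a subunit of complex I, was at 42.3, 48.2 and 44.5 FPKM in ND mice and 33.97, 37.1 and 39.3 FPKM in control mice (log2 fold change -0.28 ± 0.07 SE, adjusted p = 0.00772). The 13 proteins encoded by mitochondrial DNA took 10.9%, 10.6% and 10.4% of the summed FPKM in ND mice and 10.5%, 10.7% and 10.1% in control mice (exact permutation test, two-sided, p = 0.5).

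Acute phase genes went in both directions. Of 30 tested members 14 rose and 9 fell, with a median of 0.09, and 11 rose and 9 fell without control mouse 3. *Saa1*, serum amyloid A, was at 12.8, 15.1 and 9.63 FPKM in ND mice and 58.5, 44.5 and 65.95 FPKM in control mice (log2 fold change 2.09 ± 0.23 SE, adjusted p = 9.16e-05), and *Saa2* rose with a log2 fold change of 2.47. *Orm2*, an acid glycoprotein, was at 9.69, 12.3 and 7.32 FPKM in ND mice and 60.4, 40.4 and 72.5 FPKM in control mice (log2 fold change 2.44 ± 0.23 SE, adjusted p = 2.95e-05). *Lcn2*, which binds bacterial iron carriers, was at 0.651, 1.25 and 1.17 FPKM in ND mice and 25.9, 16.8 and 33.97 FPKM in control mice (log2 fold change 3.67 ± 0.33 SE, adjusted p = 1.95e-05). *Hp*, haptoglobin, gained 927 FPKM from a mean of 1207 FPKM. Albumin fell by 8720 FPKM, the largest loss of any gene that fell, with a log2 fold change of -0.51. Its share of the summed FPKM went from 6.63% to 7.39% in ND mice to 5.57% to 5.85% in control mice (exact permutation test, two-sided, p = 0.1, the smallest possible).

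Complement and coagulation genes, most of them made by hepatocytes, were lower in 32 of 47 tested members and higher in 8, with a median of -0.43, and 5 were higher without control mouse 1, control mouse 3 or ND mouse 2. *C3*, the centre of the complement cascade, was at 1585, 1453 and 1589 FPKM in ND mice and 782, 822 and 863 FPKM in control mice (log2 fold change -0.91 ± 0.07 SE, adjusted p = 6.06e-06), and *F2*, prothrombin, at 394, 389 and 418 FPKM in ND mice and 278, 303 and 312 FPKM in control mice (log2 fold change -0.43 ± 0.06 SE, adjusted p = 0.000502). *C8a* fell with a log2 fold change of -1.21 together with *C8b*. In the alpha-1-antitrypsin family, 8 of 16 tested clade A serpins fell and 3 rose, and *Serpina3k* fell by 2641 FPKM on average, from 3445, 3818 and 4196 FPKM in ND mice to 897, 1221 and 1419 FPKM in control mice. *Serpina7*, which carries thyroid hormone, rose from 23.1, 21.6 and 24.2 FPKM in ND mice to 84.3, 72.6 and 89.4 FPKM in control mice (log2 fold change 1.79 ± 0.09 SE, adjusted p = 6.32e-07). The median of this list, -0.22, became 0.02 in TPM.

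Hormones and other secreted signals of the liver included strong changes in both directions. *Fgf21*, a fasting and stress hormone, was at 0.599, 1.46 and 0.644 FPKM in ND mice and 9.54, 8.07 and 18.3 FPKM in control mice (log2 fold change 2.72 ± 0.28 SE, adjusted p = 4.82e-05), and *Gdf15*, which acts on appetite, at 3.87, 1.90 and 1.92 FPKM in ND mice and 17.02, 7.99 and 16.9 FPKM in control mice (log2 fold change 2.04 ± 0.27 SE, adjusted p = 0.000268). *Enho*, which encodes adropin, fell from 6.73, 5.01 and 6.67 FPKM in ND mice to 1.17, 0.959 and 1.37 FPKM in control mice (log2 fold change -1.71 ± 0.12 SE, adjusted p = 4.04e-06). The fetuins *Ahsg* and *Fetub* fell with log2 fold changes of -0.88 and -1.23. *Hamp*, the iron hormone hepcidin, was at 869, 914 and 664 FPKM in ND mice and 272, 559 and 283 FPKM in control mice and did not pass the test (log2 fold change -1.20 ± 0.46 SE, adjusted p = 0.0626), but did without control mouse 2, with -1.54. Metallothioneins rose, *Mt1* from 3.75, 2.32 and 5.40 FPKM in ND mice to 17.4, 13.7 and 14.2 FPKM in control mice (log2 fold change 1.78 ± 0.19 SE, adjusted p = 7.35e-05) and *Mt2* with a log2 fold change of 2.19. *Cyp26a1*, which degrades retinoic acid, was at 31.1, 27.9 and 21.3 FPKM in ND mice and 0.629, 3.33 and 13.6 FPKM in control mice, so control mouse 3 was close to the ND mice. Its log2 fold change of -2.55 became -3.37 when control mouse 3 and -1.79 when control mouse 1 was left out. Its call was lost without control mouse 1 or 2 or ND mouse 1 or 2.

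Markers of several non-parenchymal cell types rose, whereas many hepatocyte markers fell. Of 20 tested hepatocyte markers 11 fell and 9 did not pass, with a median of -0.38, and their sum went from 47850 to 49570 FPKM in ND mice to 32780 to 37260 FPKM in control mice. *Foxa3*, a hepatocyte transcription factor, fell with a log2 fold change of -1.04. What part the mix of cells had in any list of hepatocyte enzymes was not tested.

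Collagens and stellate cell genes rose together. Of 17 tested collagens 13 rose and 2 fell, with a median of 0.95, and of 21 tested stellate cell markers 14 rose and 1 fell, with a median of 0.74. *Col3a1* was at 2.52, 2.86 and 3.51 FPKM in ND mice and 21.2, 13.96 and 18.9 FPKM in control mice (log2 fold change 2.25 ± 0.16 SE, adjusted p = 4.32e-06). *Acta2*, the actin of activated stellate cells, was at 0.991, 1.13 and 1.34 FPKM in ND mice and 3.34, 2.71 and 3.63 FPKM in control mice (log2 fold change 0.97 ± 0.19 SE, adjusted p = 0.00296), and *Lum*, a proteoglycan, rose with a log2 fold change of 1.43. *Des* and *Lrat*, markers of stellate cells at rest, did not pass the test, at 1.30, 1.36 and 1.45 FPKM in ND mice and 1.61, 1.32 and 1.68 FPKM in control mice for *Des* and 4.39, 4.14 and 5.59 FPKM in ND mice and 7.41, 5.61 and 7.95 FPKM in control mice for *Lrat*. *Lrat* passed without control mouse 2 or ND mouse 3, with log2 fold changes of 0.61 and 0.59. The stellate cell markers summed to 126 to 168 FPKM in ND mice and 204 to 242 FPKM in control mice. Of the 17 tested collagens 6 had an ND mean below 1 FPKM, all of which rose, as did 6 of the 16 tested matrix proteases and inhibitors. The listed collagens summed to 219 to 248 FPKM in ND mice and 229 to 279 FPKM in control mice, so their sums overlapped. As a share, all collagen genes took 0.0548%, 0.0521% and 0.0580% of the FPKM in ND mice and 0.0773%, 0.0625% and 0.0781% in control mice (exact permutation test, two-sided, p = 0.1, the smallest possible). Among matrix proteases and inhibitors 11 of 16 rose and 2 fell. *Timp1*, an inhibitor of metalloproteases, was listed at 0 in ND mice 2 and 3 and at 0.128 FPKM in ND mouse 1, against 2.06 to 4.45 FPKM in control mice. *Mmp12*, the elastase of macrophages, rose from 0.0348 to 0.0865 FPKM to 1.52 to 2.74 FPKM (log2 fold change 1.53 ± 0.17 SE, adjusted p = 8.46e-05).

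Markers of lipid-associated macrophages rose and those of Kupffer cells were mixed. Of 15 tested markers of lipid-associated macrophages 14 rose, with a median of 1.29. The level limit tilts this count, since 5 of the 15 had an ND mean below 1 FPKM, all of which rose, and 3 of the 18 listed were not tested. The member that did not pass, *Apoe*, is also made by hepatocytes. *Apoe* sets the sum of this list, which was 10280 to 10920 FPKM in ND mice and 9437 to 10100.0 FPKM in control mice. *Gpnmb*, a membrane glycoprotein of these cells, was at 0.0175, 0.0387 and 0.0598 FPKM in ND mice and 2.62, 1.84 and 2.65 FPKM in control mice (log2 fold change 1.69 ± 0.17 SE, adjusted p = 3.78e-05). *Cd63*, a tetraspanin of lysosomes, was at 0.68, 0.479 and 0.62 FPKM in ND mice and 6.39, 3.57 and 5.98 FPKM in control mice (log2 fold change 1.96 ± 0.16 SE, adjusted p = 1.18e-05), and *Lgals3*, galectin-3, at 3.28, 1.86 and 3.32 FPKM in ND mice and 17.3, 8.82 and 12.00 FPKM in control mice (log2 fold change 1.82 ± 0.26 SE, adjusted p = 0.000357). *Trem2*, the receptor that names this state, was below the limit of 1 FPKM, at 0.0509 to 0.115 FPKM in ND mice and 0.606 to 1.24 FPKM in control mice. Of the 11 Kupffer cell markers 2 rose and 4 fell. The Kupffer cell markers summed to 173 to 266 FPKM in ND mice and 209 to 233 FPKM in control mice. *Clec4f*, a lectin that defines Kupffer cells, was at 49.1, 36.5 and 48.6 FPKM in ND mice and 44.6, 46.9 and 39.8 FPKM in control mice (log2 fold change -0.02 ± 0.13 SE, adjusted p = 0.922). *Marco*, a scavenger receptor, was at 33.4, 15.7 and 21.1 FPKM in ND mice and 3.72, 11.7 and 2.46 FPKM in control mice and *Timd4*, which binds dying cells, at 6.26, 4.00 and 5.56 FPKM in ND mice and 1.82, 4.03 and 1.62 FPKM in control mice, with log2 fold changes of -1.98 and -0.89. The call of *Timd4* was lost without control mouse 1, control mouse 3 or ND mouse 1, with log2 fold changes of -0.78 to -0.72. Of 6 tested markers of monocytes and neutrophils 4 rose, with sums of 66.04 to 86.9 FPKM in ND mice and 111 to 161 FPKM in control mice.

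Inflammatory genes rose in part. Of 17 tested chemokines and receptors 6 rose and 2 fell, and of 19 genes of TNF and IL1 signalling 9 rose and 4 fell. An ND mean below 1 FPKM was found in 4 of the 17, of which 3 rose, and in 2 of the 19, which both rose. A further 17 and 6 listed genes, respectively, were not tested, so the level limit tilts these counts too. *Ccl2*, which attracts monocytes, was at 1.30, 0.277 and 0.636 FPKM in ND mice and 3.84, 2.06 and 6.15 FPKM in control mice (log2 fold change 1.49 ± 0.30 SE, adjusted p = 0.00316). *Il1b* was at 2.45, 1.65 and 3.41 FPKM in ND mice and 2.37, 1.47 and 2.88 FPKM in control mice and did not pass the test (log2 fold change -0.11 ± 0.21 SE, adjusted p = 0.737), and *Tnf* and *Il6* were below the limit of 1 FPKM. *Vcam1*, an adhesion molecule for leukocytes, was at 1.49, 1.03 and 1.09 FPKM in ND mice and 4.32, 3.68 and 4.55 FPKM in control mice (log2 fold change 1.24 ± 0.12 SE, adjusted p = 2.83e-05). *Cxcl13*, a chemokine for B cells, fell from 8.41, 4.49 and 5.76 FPKM in ND mice to 0, 0.977 and 0.42 FPKM in control mice (log2 fold change -2.32 ± 0.34 SE, adjusted p = 0.000454). Of 37 tested interferon-stimulated genes 10 rose and 2 fell, with a median of 0.11 that became 0.24 without ND mouse 1 and 0.17 without control mouse 3, and *Isg15* and *Ifit1* did not pass, with log2 fold changes of 0.27 and 0.20. Antigen presentation genes rose in 13 of 24 tested members, with a median of 0.30. The class II genes *H2-Aa*, *H2-Ab1* and *H2-Eb1* rose with log2 fold changes of 0.77, 0.79 and 0.77, but lost their call when control mouse 1, control mouse 3, ND mouse 2 or ND mouse 3 was left out, and 5 to 14 members of the list rose over the 6 such fits.

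Endothelial and bile duct markers rose in part. Of 22 tested sinusoidal endothelial markers 8 rose, with a median of 0.25, but *Stab2* and *Clec4g*, its defining scavenger receptor and lectin, did not pass, with log2 fold changes of 0.09 and 0.22. *Lyve1*, a hyaluronan receptor, was at 1.36, 1.88 and 2.21 FPKM in ND mice and 6.98, 5.15 and 6.61 FPKM in control mice (log2 fold change 1.37 ± 0.18 SE, adjusted p = 0.000225), and *Plvap*, of fenestrae, rose with 1.02. Of 11 tested bile duct markers 8 rose, with a median of 0.81 and 3 of them with an ND mean below 1 FPKM, while *Krt19* and *Krt7*, the defining keratins, were below the limit, at 0.0404 to 0.815 FPKM in ND mice and 0.126 to 1.18 FPKM in control mice. The endothelial list summed to 208 to 257 FPKM in ND mice and 291 to 307 FPKM in control mice, and the bile duct list to 313 to 368 and 594 to 891 FPKM, respectively. Of the 18 listed bile duct markers 7 were not tested. Members other than *Krt19* and *Krt7* set the bile duct sum, and which cells made their transcripts was not tested. *Anxa5*, an annexin that binds phosphatidylserine, had its highest ND value below the lowest control value, 127 FPKM, and reached 188 FPKM in control mice (log2 fold change 1.91 ± 0.16 SE, adjusted p = 1.17e-05). *Krt23*, a keratin, was at 0.655, 1.05 and 0.711 FPKM in ND mice and 7.07, 10.9 and 3.52 FPKM in control mice (log2 fold change 2.08 ± 0.31 SE, adjusted p = 0.000569).

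Cell cycle genes were low in all livers and rose in 14 of 18 tested members, with a median of 0.82. The other 15 of the 33 listed genes were not tested, and 6 of the 18 had an ND mean below 1 FPKM, all of which rose, so this count too is tilted by the level limit. *Ccnd1*, cyclin D1, was at 7.96, 6.20 and 6.05 FPKM in ND mice and 25.4, 24.9 and 18.2 FPKM in control mice (log2 fold change 1.62 ± 0.21 SE, adjusted p = 0.000244). *Cdkn1a*, the inhibitor p21, was at 1.15, 0.904 and 0.893 FPKM in ND mice and 4.49, 4.24 and 15.1 FPKM in control mice, with control mouse 3 far above the other 2 (log2 fold change 1.97 ± 0.45 SE, adjusted p = 0.00677). *Mki67* and *Top2a*, markers of dividing cells, were below the limit of 1 FPKM in the mean of all mice, at 0.167 to 0.396 FPKM in ND mice and 0.857 to 1.58 FPKM in control mice.

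Signs of handling were read beside these results. Of 18 tested immediate early genes, which respond within minutes to stress and dissection, 7 rose, with a median of 0.42, and their sum was 112 to 201 FPKM in ND mice and 180.0 to 228 FPKM in control mice, so the sums overlapped. *Jun* was at 12.5, 5.43 and 5.13 FPKM in ND mice and 24.7, 17.8 and 19.8 FPKM in control mice (log2 fold change 1.41 ± 0.25 SE, adjusted p = 0.00139). Among 617 tested transcription factors, as annotated in the table, 4 passed both thresholds as higher, *Mafk*, *Atf3*, *Jun* and *Klf6*, and 3 as lower, among them *Zfp992* and *Foxa3*. Both shares were smaller than the 2.25% and 1.63% of all tested genes. *Mafk* and *Zfp992* were named after their values were seen. Of 13 genes encoded by mitochondrial DNA 5 fell, with a median of -0.30, and 8 fell without ND mouse 3. This depended on the scaling, since in TPM 1 of the 13 fell and the median was -0.07. For the content of blood, *Hba-a1*, a hemoglobin chain, was at 109.7, 77.6 and 84.2 FPKM in ND mice and 164, 164 and 100.2 FPKM in control mice (log2 fold change 0.63 ± 0.32 SE, adjusted p = 0.149). Of the 6 tested erythroid genes 1 fell, and without control mouse 3 the number that rose was 4.

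In genes of the circadian clock control mouse 3 differed from control mice 1 and 2. *Arntl*, the clock activator BMAL1, was at 1.98, 1.73 and 2.04 FPKM in ND mice and 0.21, 0.174 and 3.23 FPKM in control mice, and *Dbp*, one of its targets, at 14.97, 16.2 and 23.3 FPKM in ND mice and 50.02, 53.5 and 4.53 FPKM in control mice. The ND mice lay between control mouse 3 and the other 2 control mice, and *Per3*, *Tef*, *Nfil3* and *Ciart* showed the same order in the plot of clock genes. *Arntl* also varied within the other groups, at 1.80, 0.946 and 0.156 FPKM in HYA-treated mice and 2.78, 2.06 and 0.316 FPKM in LA-treated mice. Of the 17 tested clock genes 2 fell, *Clock* and *Nr1d1*, and 4 fell and 1 rose when control mouse 3 was left out. Rescaled to TPM with all mice, 0 fell and 0 rose. *Arntl* did not pass with all mice (log2 fold change -0.68) but passed without control mouse 3, with -1.29, and the call of *Clock* was lost without control mouse 1. The call of *Nr1d1* held without control mouse 1 or ND mouse 1 and was lost in the other 4 such fits. Genes of the endoplasmic reticulum stress list moved with this mouse. *Hspa5*, the main chaperone of the endoplasmic reticulum, was at 216, 291 and 202 FPKM in ND mice and 97.4, 102 and 256 FPKM in control mice (log2 fold change -0.77 ± 0.36 SE, adjusted p = 0.117), and 9 of 28 tested members fell with all mice, 16 when control mouse 3 was left out. Leaving out control mouse 1, control mouse 2 or ND mouse 2 gave 3, 5 and 4, respectively. The number also depended on the scaling, since in TPM 1 of the 28 fell and 4 rose, with a median of -0.12. *Hspa5* passed without control mouse 3, with a log2 fold change of -1.22. *Rgs16*, a regulator of G-protein signals that cycles with feeding, was at 0.681, 1.75 and 8.45 FPKM in ND mice and 88.99, 88.4 and 33.04 FPKM in control mice, and its log2 fold change of 4.20 became 4.92 without ND mouse 3. The part of time of day or feeding in these values was not tested.

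**Figure D4:**
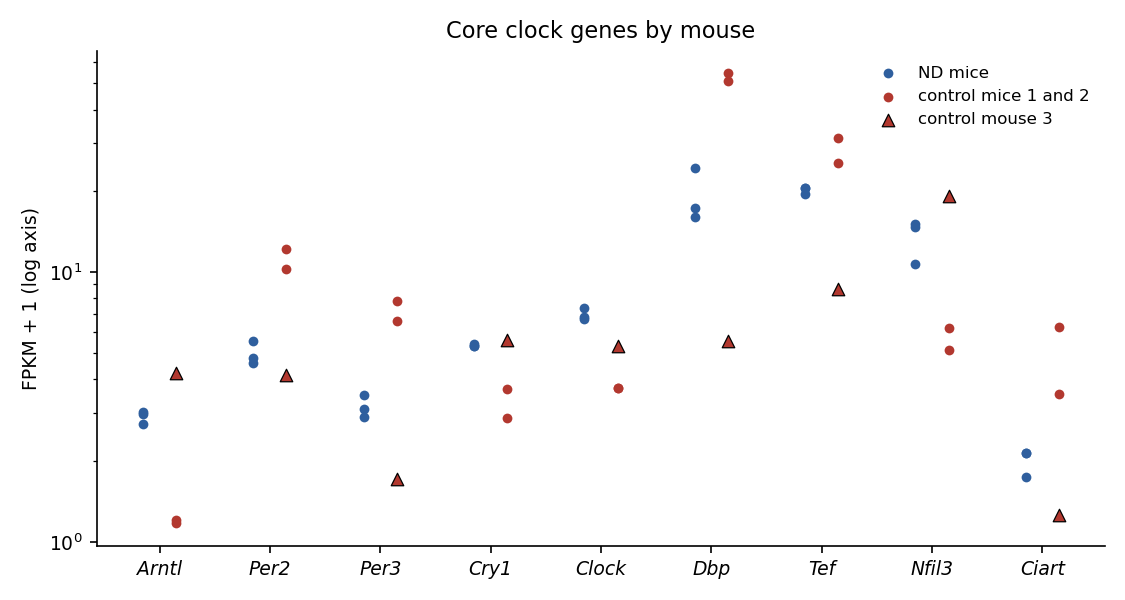
FPKM + 1 on a log axis for 9 clock genes in the 3 ND mice (blue), control mice 1 and 2 (red circles) and control mouse 3 (red triangle). Control mouse 3 lies on the opposite side of the ND mice from control mice 1 and 2 in *Arntl*, *Per2*, *Per3*, *Cry1*, *Dbp*, *Tef*, *Nfil3* and *Ciart*.

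The lists can be read side by side in the plot of list shares. The 50 lists hold 1156 genes, of which 101 are in more than 1 list and 966 were tested, so lists are not independent of each other. Rescaled to TPM, the medians of the glutathione, hepatokine, clock, pericentral, iron, retinoid and Kupffer cell lists, like those already given for lipoproteins, serpins and oxidative phosphorylation, changed sign from negative to positive. Pericentral genes were 5 up and 6 down of 23, with *Glul*, the glutamine synthetase of that zone, at 336, 343 and 309 FPKM in ND mice and 406, 494 and 463 FPKM in control mice (log2 fold change 0.46 ± 0.11 SE, adjusted p = 0.00813), and periportal genes were 3 up and 9 down of 20, with *Cyp2f2* at 683, 719.7 and 784 FPKM in ND mice and 355, 408 and 360.0 FPKM in control mice (log2 fold change -0.96 ± 0.11 SE, adjusted p = 9.82e-05).

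**Figure D5:**
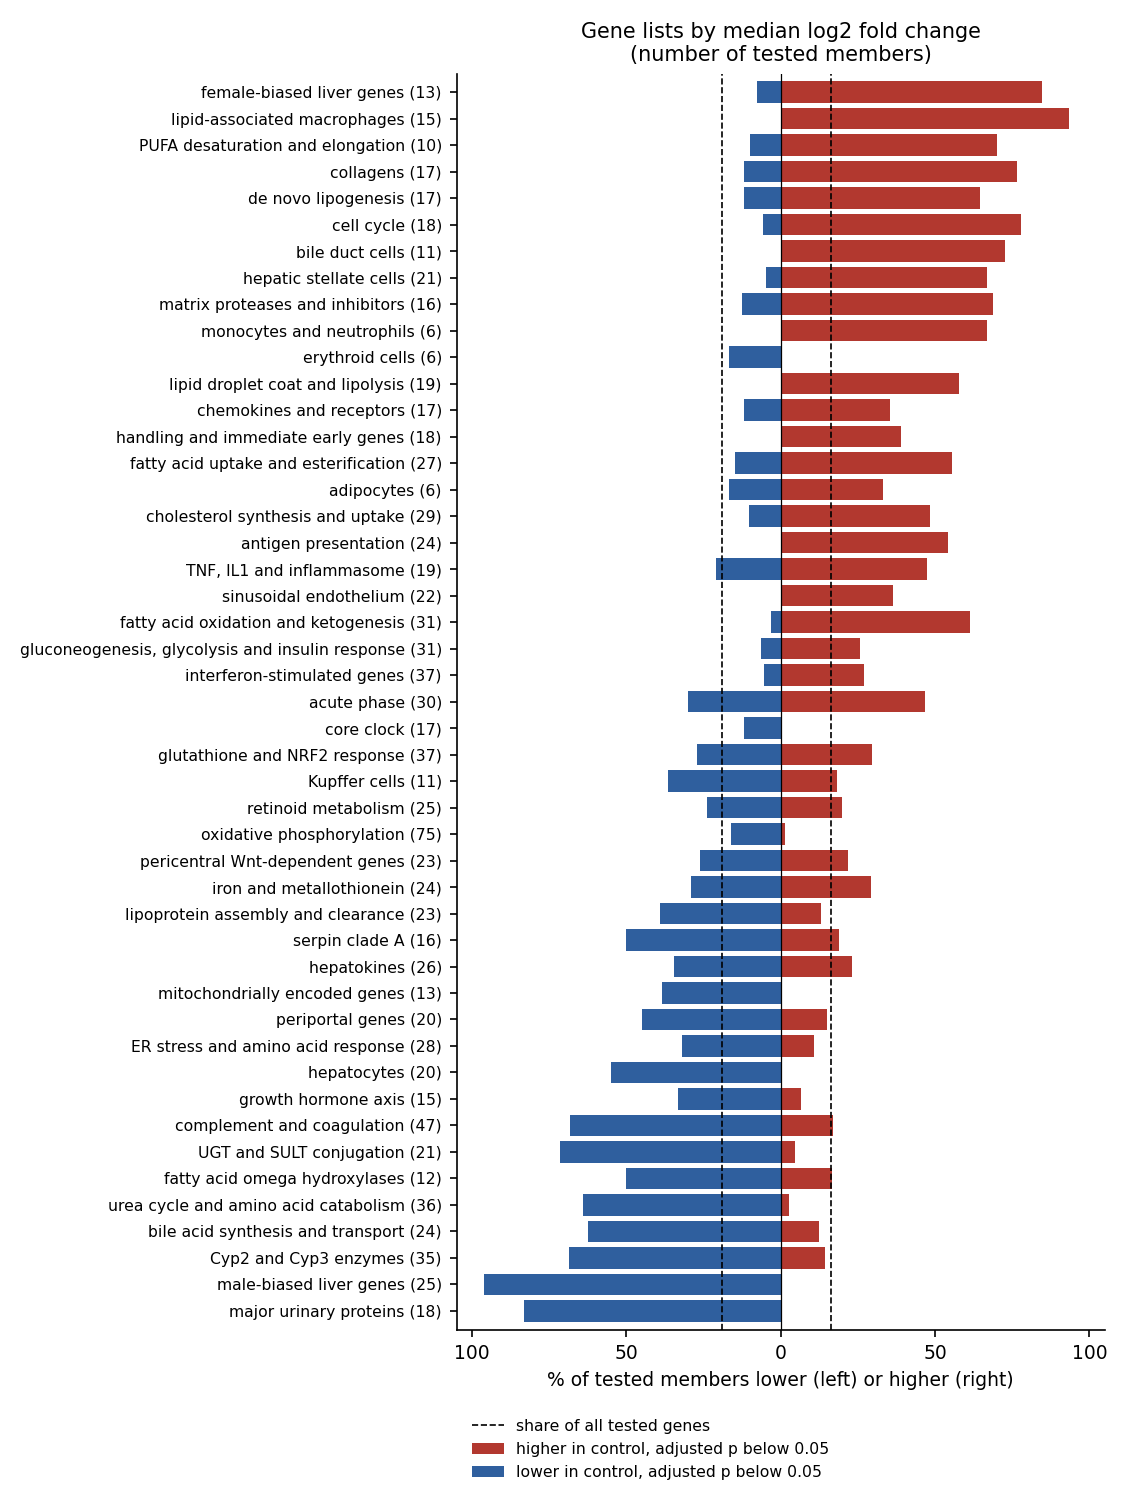
Share of tested members, for gene lists of 5 or more tested genes, that rose (red, right) or fell (blue, left) at an adjusted p below 0.05, ordered by median log2 fold change, with the number of tested members in brackets; dashed lines mark the 16.2% and 19.1% of all tested genes. Female-biased, macrophage, collagen and lipid synthesis lists stand at the top and male-biased genes, major urinary proteins and P450 enzymes at the bottom.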

How the data were processed

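Liver RNA of 12 mice in 4 groups was sequenced by the study, 3 mice a group. According to the submitters' processing notes, reads were cleaned with fastp, aligned with HISAT2 2.0.5 to GRCm38 and counted with featureCounts 1.5.0-p3. The authors deposited FPKM per gene, and the paper's methods speak of TPM, but the column sums differ between mice, so the values were used as FPKM. Of the values 99.981% are whole multiples of 1 fragment (tolerance 0.05 fragment), which would also hold for TPM and does not separate the measures. The 6 ND and control libraries held 17169064 to 20669092 fragments. The scaling total recovered from the values was 15884206 to 17972216 in ND mice and 20719051 to 21503657 in control mice. It lay below the fragments on genes in each ND mouse and above them in each control mouse. Such a total is not a plain library size, and how it was set was not tested. Rescaling to TPM removes this total from the values.

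Genes that averaged 1 FPKM or more across the 12 mice were tested on log2(FPKM + 1) with limma 3.58.1 in R 4.3.3 (mean-variance trend, all 4 groups, contrast control minus ND, Benjamini-Hochberg adjustment over all tested genes). Fold changes are on that scale and understate the change of low genes. The pipeline was tested on simulated data. P-values measure the spread between these mice.

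Named genes are the 12 largest changes in each direction without overlap, the first 2 members of each list and up to 4 more with the largest called changes, the 6 largest gains and losses in FPKM, and the 5 with the largest spread among control mice. The members and lists were chosen with earlier results of these data known. Same-numbered mice did not deviate together (correlations 0.0944, 0.0877 and -0.00297), so they were not paired. Promoters came from RefSeq on GRCm38.p6, in which 23 motifs were counted on both strands. Alternatives were median-ratio size factors, TPM, other filters and pseudocounts, the 6 mice alone, a replicate block, voom on recovered fragments, and leaving out each mouse. The alternatives for lists were chosen after seeing the data. The values of some named genes are not reported here.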

Additional observations from a re-analysis of the deposited data

How the results depend on the processing

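The counts past both thresholds were 249 higher and 181 lower, and by adjusted p alone 1795 and 2115. Rescaling to TPM gave 573 higher genes, 3792 higher and 732 lower by adjusted p alone, and turned the log2 fold change of *Apob* from -0.18 to 0.06 (limma, adjusted p = 0.426); all 249 higher and 134 of the 181 lower genes were shared with that setting. A mean of at least 5 FPKM left 5763 genes, with 154 higher past both thresholds and 929 by adjusted p alone. A pseudocount of 0.1 gave 461 and voom on recovered fragments 477 higher genes. Leaving out 1 mouse at a time gave 233 to 272 higher and 141 to 201 lower genes, and 1364 to 1668 higher and 1459 to 1928 lower by adjusted p alone. Size factors, no filter and the 6 mice alone kept the 4 counts within 1.5 times.

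With a replicate block there were 250 higher and 180 lower genes, and 1777 and 2015 by adjusted p alone, with 249 and 178 genes shared past both thresholds; the mice share only a number. Over single named genes and alternatives, 4014 values kept direction and call, 134 lost the call, 34 gained it, 109 moved in size and 1 reversed. Where a call depended on 1 mouse the cause was not tested. The floor of 3 fragments limits what can be said of genes below about 0.1 FPKM.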
